A study of Rattus norvegicus with 8 samples.

Results

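The mucus genes of goblet cells were followed as a set of 7 genes, Muc2, Tff3, Fcgbp, Zg16, Agr2, Spdef and Spink4, chosen by name as genes of goblet cells and their mucus. Each was read by 1 probe set (a group of array probes for 1 transcript) annotated to that gene alone, among 31099 probe sets and 14217 genes with a probe set to themselves. A further probe set was shared between Fcgbp and Fcgbpl1 and was given by level only. All 7 genes passed the filter on dim signals, which left 9258 genes to be tested. RNA of epithelial cells shaken loose from proximal small intestine of female Wistar rats, 4 months old, was hybridised to Affymetrix Rat Genome 230 2.0 arrays, with 2 arrays in each of 4 groups. The groups were water restriction for 12 h (WR), deep-sea water with its sodium reduced and a hardness of 1200 for 3 days (DSW1200), drinking water with selenium, as selenite, for 3 days (SeW) and tap water for 3 days (TW), so that WR and TW differed in duration as well as in water. The paper describes its selenium water as selenite in distilled water, so SeW and TW may differ in the base water as well as in selenium. Nothing in the labels says that the 2 arrays of a group came from separate rats, so the p-values measure the spread between these arrays, which may be technical.

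Goblet cells are secretory cells scattered among the absorptive cells of the intestinal epithelium, and they release the mucus that covers it. The gel itself is a net of the mucin Muc2, which carries the trefoil peptide Tff3, the IgG Fc binding protein Fcgbp and the lectin Zg16. Agr2 is a disulfide isomerase of the endoplasmic reticulum that mucin assembly needs, Spdef is a transcription factor of goblet cell maturation, and Spink4 is a small secreted peptide of the Kazal protease inhibitor family.

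RefSeq promoter sequences were found for 6 of the 7 genes, with 2 start sites for Spink4. The 250 bases before the start site are shown for Muc2 as the gel-forming mucin, for Tff3 as its companion peptide, and for Spink4 as the member whose signal varied most between groups. Capitals mark matches on either strand to CAGCTG (an E-box, the kind of site that basic helix-loop-helix factors of the secretory lineage bind), TATAA (the core of a TATA box) and GATAA (the core of sites for GATA factors), and none of the matches shown overlapped another.
Muc2, GRCr8 chr1:206228785-206229034 (plus strand): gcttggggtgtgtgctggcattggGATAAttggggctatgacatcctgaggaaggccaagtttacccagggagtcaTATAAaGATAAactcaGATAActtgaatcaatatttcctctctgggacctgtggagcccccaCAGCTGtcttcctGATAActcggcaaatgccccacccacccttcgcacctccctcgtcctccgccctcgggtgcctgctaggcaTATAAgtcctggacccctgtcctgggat
Tff3, GRCr8 chr20:9199334-9199583 (minus strand): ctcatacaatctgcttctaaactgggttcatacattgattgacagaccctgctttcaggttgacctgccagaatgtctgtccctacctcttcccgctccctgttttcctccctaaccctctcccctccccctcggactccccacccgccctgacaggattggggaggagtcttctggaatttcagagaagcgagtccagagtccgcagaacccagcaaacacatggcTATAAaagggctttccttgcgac
Spink4, start site 1, GRCr8 chr5:60839669-60839918 (plus strand): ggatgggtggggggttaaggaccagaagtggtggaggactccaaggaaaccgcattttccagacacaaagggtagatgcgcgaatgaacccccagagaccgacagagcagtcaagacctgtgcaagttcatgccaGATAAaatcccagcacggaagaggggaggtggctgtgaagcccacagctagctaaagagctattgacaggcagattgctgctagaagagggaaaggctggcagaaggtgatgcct
Spink4, start site 2, GRCr8 chr5:60848810-60849059 (plus strand): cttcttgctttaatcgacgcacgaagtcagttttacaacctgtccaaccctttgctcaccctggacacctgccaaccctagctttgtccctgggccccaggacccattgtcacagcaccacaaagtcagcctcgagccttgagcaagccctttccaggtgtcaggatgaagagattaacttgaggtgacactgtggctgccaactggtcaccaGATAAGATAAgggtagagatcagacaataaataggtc
Muc2 held 1 CAGCTG from base -112 to -107 (the last base before the start site is -1), 2 TATAA, of which the nearer began at base -28, and 4 GATAA. Tff3 held a single TATAA, beginning at base -23, and neither other motif. Each Spink4 start had GATAA only, with 1 match before the first start and 2 adjoining matches from base -37 to -28 before the second. Among all 33469 RefSeq promoters cut to the same length, 12.0% held CAGCTG, 24.0% TATAA and 23.5% GATAA. These matches describe the letters of the windows and were not read against the signals.

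Signals are given after quantile normalization, in the arbitrary linear units of the deposited intensities, and changes are log2 differences between group means with their standard errors (SE), from a limma model over all 8 arrays. A gene passed the test at an adjusted p under 0.05 after Benjamini-Hochberg adjustment over all 9258 tested genes. With 2 arrays against 2, an exact permutation test of a single gene could reach no p below 0.333. Before normalization the median deposited signal was 8 to 9 on the WR arrays, 6.1 to 7 in DSW1200, 10.6 to 11.1 in SeW and 4.3 to 8.4 in TW. The 3' probe set of beta-actin over its 5' probe set, a ratio that grows with broken or incompletely copied RNA, was 21.1 to 24.8 in WR, 27.1 to 32.8 in DSW1200, 10.9 to 13.6 in SeW and 20.6 to 24.1 in TW. It was lower on both SeW arrays than on every other array, as was the same ratio for Gapdh (1.80 and 1.82 in SeW). In each comparison with SeW, the water and this difference in RNA therefore cannot be told apart.

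No mucus gene passed the test in any comparison, and Spink4 had the widest changes of the 7. By limma, 0 of the 7 passed the test in any of the 6 comparisons between groups. The tested genes that passed made up 0.0108% of the total for WR against TW, 0% for DSW1200 against TW, 1.91% for SeW against TW, 2.72% for SeW against DSW1200, 1.23% for SeW against WR and 0% for DSW1200 against WR. At an unadjusted p under 0.05 there was 1 member for WR against TW (Spdef) and 0 for DSW1200 against TW. There were 2 for SeW against TW (Spink4 and Zg16) and 1 for SeW against DSW1200 (Spink4). For SeW against WR there were 2 (Spink4 and Zg16), and for DSW1200 against WR 0. In the same order of comparisons, 898, 733, 1810, 1848, 1529 and 541 of the 9258 tested genes were under this cut. The member counts were not tested against those of all genes. Apart from Spink4, the 36 changes of the other 6 genes over the 6 comparisons ran between -0.51 and 0.37 on the log2 scale, that is between 0.702-fold and 1.29-fold. Their 95% intervals reached no further than -1.01 and 0.89, so a change of these genes much beyond 2-fold lay outside the intervals. That holds for the spread between these arrays, which may be technical, and for quantile normalized values only. The interval left out 0 for Spdef in WR against TW, and for Zg16 in SeW against TW and against WR. Those intervals are not adjusted for the number of genes, and none of these changes passed the adjusted test. By the intervals the other changes of these 6 genes could not be told from none. The epithelial cells were measured in bulk, so fewer goblet cells and less RNA per goblet cell cannot be told apart.

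**Figure D1:**
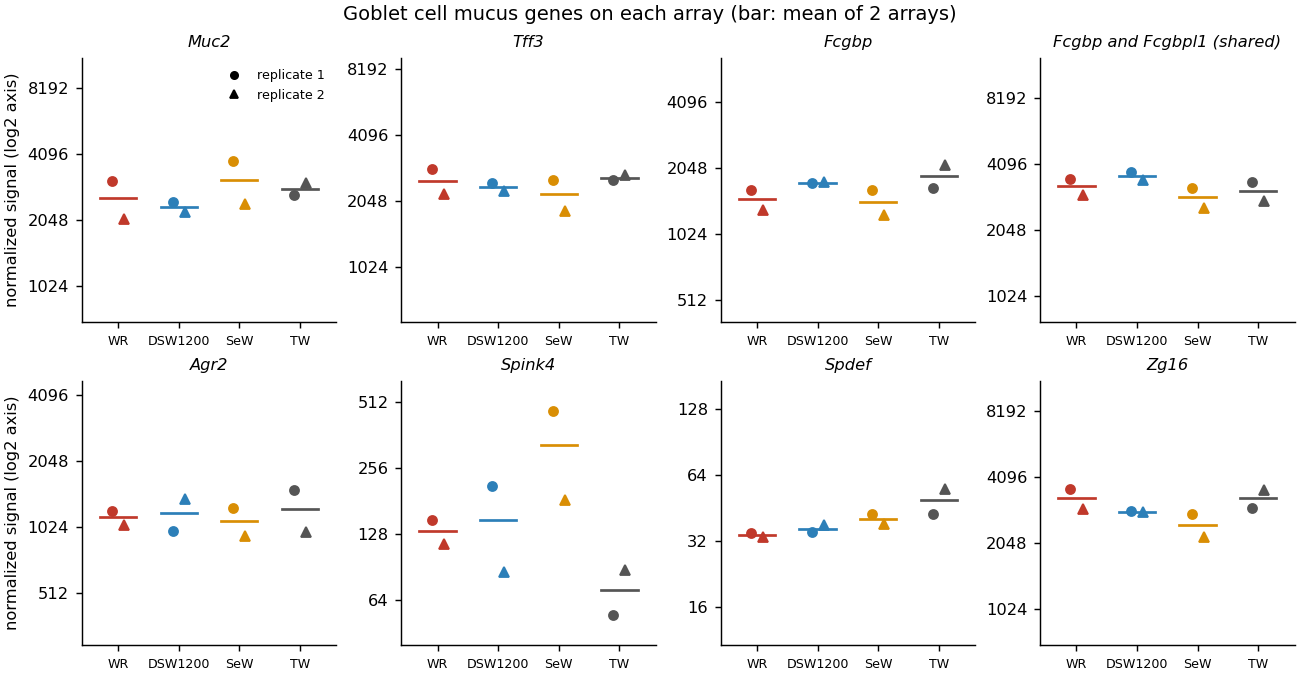
Quantile-normalized signal of each mucus gene on each array (log2 axis, every panel spanning at least 16-fold), by group, with replicate 1 as circles, replicate 2 as triangles and the mean of 2 arrays as a bar. Spink4 lies at 466 and 182 in SeW against 54.3 and 87.6 in TW, while the bars of the other genes sit close together.

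Muc2, the mucin that forms the gel, was bright in every group and its groups overlapped widely. Its signal was 3076 and 2070 in WR, 2485 and 2227 in DSW1200, 3821 and 2428 in SeW, and 2675 and 3015 in TW. The highest and the second highest value both came from replicate 1 of a treated group, and replicate 2 of WR was the lowest of all 8 arrays. Group means ran in the order SeW, TW, WR and DSW1200, over a range of 0.37 on the log2 scale that was smaller than the gap of 0.65 between the 2 SeW arrays, so no neighbours in that order differed beyond their spread. The log2 change was 0.10 ± 0.23 (SE, n = 2 arrays a group here and below) for SeW against TW, -0.27 ± 0.23 for DSW1200 against TW and -0.17 ± 0.23 for WR against TW, with limma adjusted p of 0.855, 0.722 and 0.831. Both DSW1200 arrays lay below both TW arrays. For SeW against DSW1200 the change was 0.37 ± 0.23 (limma adjusted p = 0.411), and the groups overlapped through SeW replicate 2. On the deposited values without scaling between arrays Muc2 passed the test for SeW against TW (0.70, limma adjusted p = 0.0262) and for SeW against DSW1200 (0.99, limma adjusted p = 0.00691), where the median gene was itself 0.92 higher in SeW than in TW.

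Tff3, Fcgbp and Zg16, which leave the cell with Muc2, each had their lowest group mean in SeW, and none passed the test. Agr2, given below, also had its lowest group mean in SeW. Tff3, a trefoil peptide that aids repair of the epithelial surface, had a signal of 2863 and 2192 in WR, 2468 and 2267 in DSW1200, 2559 and 1844 in SeW, and 2541 and 2686 in TW. Both DSW1200 arrays were below both TW arrays, whereas WR and SeW each had 1 array above and 1 below the lower TW array. Its change was -0.27 ± 0.18 for SeW against TW, -0.14 ± 0.18 for DSW1200 against TW and -0.06 ± 0.18 for WR against TW (limma adjusted p = 0.459, 0.816 and 0.936).

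Fcgbp, a large protein with mucin-like domains that binds the Muc2 net, had a signal of 1632 and 1325 in WR, 1749 and 1777 in DSW1200, 1635 and 1251 in SeW, and 1659 and 2130 in TW. Both WR arrays and both SeW arrays lay below both TW arrays, though WR replicate 1 and SeW replicate 1 came close to TW replicate 1. The change was -0.39 ± 0.18 for SeW against TW and -0.35 ± 0.18 for WR against TW (limma adjusted p = 0.269 and 0.549), against -0.09 ± 0.18 for DSW1200 against TW (0.891). The probe set shared by Fcgbp and Fcgbpl1 did not separate WR or SeW from TW. It read 3516 and 2971 in WR, 3758 and 3451 in DSW1200, 3201 and 2594 in SeW, and 3403 and 2785 in TW. On that probe set both DSW1200 arrays were above both TW arrays, and the order of the groups differed from that of the Fcgbp probe set.

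Zg16, a lectin that binds the cell wall of Gram-positive bacteria and keeps them from the epithelium, had the smallest standard error of the 7 genes. Its signal was 3625 and 2943 in WR, 2863 and 2846 in DSW1200, 2771 and 2183 in SeW, and 2971 and 3586 in TW. Both SeW arrays lay below all 6 other arrays, both DSW1200 arrays lay below both TW arrays, and WR and TW covered nearly the same range. The change was -0.41 ± 0.17 for SeW against TW, a 0.753-fold level, with an unadjusted p of 0.0334 in the limma fit and an adjusted p of 0.210. For SeW against WR the change was also -0.41 ± 0.17 (limma adjusted p = 0.258), for DSW1200 against TW it was -0.19 ± 0.17 (0.720), and for WR against TW it was 0.0009 ± 0.17 (0.998). SeW was thus the lowest group for Tff3, Fcgbp and Zg16, as it was for Agr2, and the highest for Muc2. For each of these 3 companions the SeW change against TW turned positive on the deposited values without scaling.

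Agr2, which forms the disulfide bonds of mucins in the endoplasmic reticulum, varied more within groups than between them. Its signal was 1217 and 1053 in WR, 989 and 1382 in DSW1200, 1255 and 937 in SeW, and 1510 and 974 in TW. The highest value belonged to TW replicate 1, and TW replicate 2 was the second lowest, so TW alone nearly covered the range of all other arrays. Group means spanned 0.16 on the log2 scale against a gap of 0.63 within TW, and the order of the 4 groups carried no difference beyond the spread. The change was -0.10 ± 0.24 for WR against TW, -0.05 ± 0.24 for DSW1200 against TW and -0.16 ± 0.24 for SeW against TW (limma adjusted p = 0.917, 0.952 and 0.768).

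Spdef, the transcription factor among the members, was dim but above the filter, a mean log2 signal over the 8 arrays that corresponds to 6.69, and was highest in TW. Its signal was 34.8 and 33.2 in WR, 35.1 and 37.5 in DSW1200, 42.5 and 38.1 in SeW, and 42.5 and 55.1 in TW. WR was the lowest group and both its arrays lay below the other 6, while the higher SeW array and the lower TW array were equal to the first decimal. The change was -0.51 ± 0.23 for WR against TW, with an unadjusted p of 0.0474 and an adjusted p of 0.510 in the limma fit. It was -0.42 ± 0.23 for DSW1200 against TW (limma adjusted p = 0.629) and -0.27 ± 0.23 for SeW against TW (0.558).

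Spink4 was the one member with a change of more than 2-fold, and it was higher in SeW. Its signal was 148 and 115 in WR, 211 and 85.9 in DSW1200, 466 and 182 in SeW, and 54.3 and 87.6 in TW. Both SeW arrays were above every WR and TW array, both WR arrays were above both TW arrays, and DSW1200 spread from below the higher TW array to above the lower SeW array. The means were 132 ± 23.0 in WR, 148 ± 88.2 in DSW1200, 324 ± 201 in SeW and 70.9 ± 23.6 in TW (SD, n = 2). SeW against TW gave a log2 change of 2.08 ± 0.49 (SE), or 4.23-fold, with a 95% interval from 1.00 to 3.17 and a limma adjusted p of 0.0598, just short of the threshold. Over the 19 limma alternatives this adjusted p ran between 0.00100 and 0.507, and it passed the threshold in 4, namely on the deposited values (change of 3.04), after median centring (2.19, adjusted p = 0.0455), without DSW1200 replicate 1 (adjusted p = 0.0425) and without DSW1200 replicate 2 (0.0429). The change was 1.40 without SeW replicate 1 and 2.76 without SeW replicate 2, 1.74 without TW replicate 1 and 2.43 without TW replicate 2. With the log2 actin ratio as a model term it was 3.78 with a limma adjusted p of 0.507. That ratio was lower on both SeW arrays than on every other array, so this fit cannot well separate it from SeW.

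Set against the other groups, Spink4 in SeW was 2.17-fold higher than in DSW1200 (log2 change of 1.12 ± 0.49, limma adjusted p = 0.239) and 2.23-fold higher than in WR (1.16 ± 0.49, limma adjusted p = 0.275). The WR and DSW1200 means lay between those of SeW and TW. The change against TW was 0.92 ± 0.49 in WR (limma adjusted p = 0.553) and 0.97 ± 0.49 in DSW1200 (0.617). In the order SeW, DSW1200, WR and TW, only SeW and TW, SeW and WR, and WR and TW did not overlap.

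**Figure D2:**
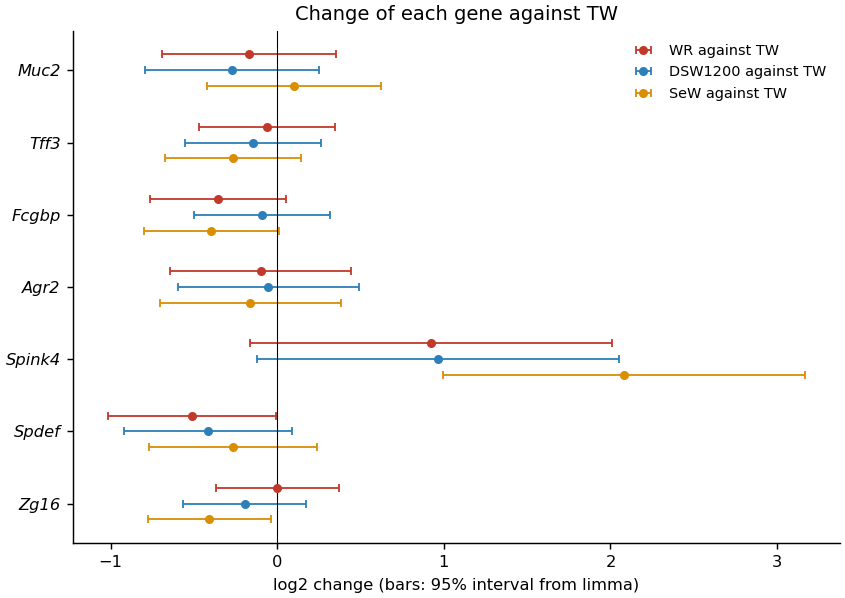
Log2 change of each mucus gene against TW with its 95% interval from limma, for WR, DSW1200 and SeW (2 arrays a group). The Spink4 interval for SeW runs from 1.00 to 3.17, and the changes of the other 6 genes lie between -0.51 and 0.10.

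By the 2-fold criterion that the study's methods name, joined to the condition of no overlap between the arrays of the 2 groups, Spink4 was the single member counted, for SeW against TW and for SeW against WR. The same criterion took 5.79% of all tested genes for SeW against TW and 4.55% for SeW against WR. No member met it for WR against TW (3.56% of all genes), DSW1200 against TW (2.89%), SeW against DSW1200 (5.41%) or DSW1200 against WR (2.33%). Counting any separation of the arrays, 1 member lay wholly above and 2 wholly below TW in WR, where 18.4% of all genes lay above and 21.3% below. In DSW1200 0 members lay above and 4 below TW, namely Muc2, Tff3, Spdef and Zg16, against 16.6% and 19.2% of all genes. In SeW 1 member lay above and 3 below TW, namely Fcgbp, Spdef and Zg16, against 22.1% and 29.1%. The median change over the 7 members was -0.10 for WR, -0.14 for DSW1200 and -0.27 for SeW, each against TW, and the median over all tested genes was -0.01, -0.02 and -0.04. The 3 comparisons share the 2 TW arrays, so their directions are not independent.

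The mucus genes also differed between the 2 arrays of 1 group. All 7 were brighter on replicate 1 than on replicate 2 in WR and again in SeW, by a median of 0.30 and 0.42 on the log2 scale. In SeW the gap ran between 0.16 for Spdef and 1.36 for Spink4, and in WR between 0.07 for Spdef and 0.57 for Muc2. In DSW1200 4 of 7 were brighter on replicate 1, with a median gap of 0.01, and in TW it was 1 of 7, Agr2, with a median of -0.27. Over all tested genes, 48.3% were brighter on replicate 1 in WR, 46.4% in DSW1200, 53.5% in SeW and 48.4% in TW, on values whose distribution quantile normalization had made the same on every array. The gaps within WR and SeW were of the size of the changes between groups given above.

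**Figure D3:**
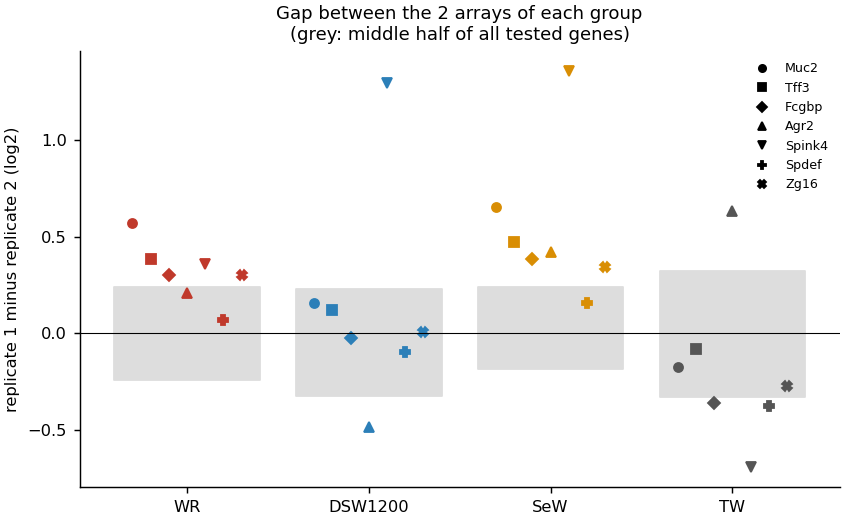
Replicate 1 minus replicate 2 (log2) for each of the 7 mucus genes in each group, with the middle 50% of all tested genes in grey. All 7 symbols lie above 0 in WR and in SeW, 4 of 7 in DSW1200 and 1 of 7 in TW.

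Across the 8 arrays the pair of members that moved most alike was Tff3 and Zg16 (Pearson r = 0.88, over arrays that share groups, as a description), followed by Tff3 and Fcgbp (r = 0.72). Spink4 went least with the rest, with r between -0.32 with Zg16 and 0.50 with Muc2. The mean of the members, each centred on its own mean, was highest on SeW replicate 1, at 0.36, and lowest on WR replicate 2, at -0.20. These extremes turned on Spink4, since without it the mean was highest on TW replicate 2, at 0.21, and lowest on SeW replicate 2, at -0.28, with SeW replicate 1 at 0.13 and WR replicate 2 at -0.20. The tested genes most like the mean of all 7 members over the 8 arrays, picked from all genes tested for that likeness, were Agtpbp1 (r = 0.91), Slc25a37, Plxna2, Neu2 and Rap1gap2 (each r = 0.88). Agtpbp1 read 27.7 and 22.2 in WR, 25.8 and 23.6 in DSW1200, 38.4 and 18.1 in SeW, and 24.99 and 33.6 in TW. The most opposite were Mzb1, a chaperone of plasma cells (r = -0.91), Gnpda2, Utp23, Actr10 and Gpkow. Mzb1 read 16.8 and 36.3 in WR, 23.2 and 23.3 in DSW1200, 4.71 and 26.7 in SeW, and 24.2 and 7.81 in TW.

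Of 31 other genes listed for goblet cells and their mucus, not all of them particular to goblet cells, 25 had a probe set of their own. Of these 19 were tested, with 0 past the test in any comparison by limma. The median of the 19 against TW was 0.10 in WR, 0.05 in DSW1200 and 0.28 in SeW. Those with the smallest p across the groups were Dmbt1, a scavenger receptor protein of mucus, Mep1b, the tetraspanin Tspan8 and the chemokine Ccl6. Mep1b, the meprin beta protease, was listed because it frees Muc2 from the cell surface, and not as a product of goblet cells. Dmbt1 read 1552 and 1589 in WR, 1320 and 1079 in DSW1200, 1893 and 1679 in SeW, and 1186 and 1184 in TW, with a change of 0.59 for SeW against TW (limma adjusted p = 0.0690). The SeW arrays of Dmbt1 were above all others. Mep1b read 3143 and 2724 in WR, 2520 and 2795 in DSW1200, 3733 and 4204 in SeW, and 2559 and 2930 in TW, and it too was highest on both SeW arrays. Its change for SeW against TW was 0.53 (limma adjusted p = 0.0799). The gastric and airway gel mucins Muc5ac and Muc5b were not tested, since the mean of their log2 signals over the 8 arrays lay under the filter. Muc5b averaged between 6.94 and 8.48 in the 4 groups, with single arrays between 1.54 and 15.4.

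Among the membrane mucins, which stay on the cell surface beneath the gel, 1 of 5 tested genes passed the test for SeW against TW and again for SeW against DSW1200, and it was Muc3 both times. Muc3, a mucin of the enterocyte brush border, read 258 and 284 in WR, 325 and 186 in DSW1200, 661 and 869 in SeW, and 134 and 295 in TW. Both SeW arrays were at least 2-fold above every other array. The change was 1.93 for SeW against TW (limma adjusted p = 0.0346) and 1.63 for SeW against DSW1200 (limma adjusted p = 0.0466). The first call was held in 8 of 19 alternatives, with adjusted p between 0.000351 and 0.680, and was lost without either SeW array (0.112 and 0.234), without either WR array (0.0696 and 0.0717), after median centring (0.0512) and with no filter on dim genes (0.138), among others. The second was held in 6 of 19, and was lost without either SeW, WR or DSW1200 array. Of the 5 tested membrane mucins 4 lay above TW in SeW, with a median of 0.18 over the 5, against -0.04 over all genes tested. Besides Muc3 these were Emcn, Muc4 and Cdhr5, with changes of 1.20, 0.18 and 0.0029 (limma adjusted p = 0.341, 0.885 and 0.996). Emcn is a mucin of endothelial cells rather than of the surface beneath the gel. It was also dim, at 9.21 and 12.1 in SeW and 7.78 and 2.71 in TW. Muc13, at 1771 and 1523 in SeW against 1951 and 1825 in TW, was the one below, with a change of -0.20 (limma adjusted p = 0.494). Muc1 was not tested.

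Mucins are coated with O-linked sugars in the Golgi, and of 27 tested genes of that pathway 1 fell for SeW against TW and 1 rose for SeW against WR. The gene that fell was Galnt10, a transferase that adds the first sugar, at 13.8 and 12.1 in SeW against 37.0 and 39.6 in TW (log2 change of -1.57, limma adjusted p = 0.0401). It was held in 4 of 19 alternatives and was lost without any one of the TW, WR or SeW arrays. The gene that rose was Gmds, which makes the donor of fucose, at 265 and 295 in SeW against 138 and 132 in WR (1.05, limma adjusted p = 0.0421), and it was held in 6 of 19. Gmds in SeW was 0.42 above TW, which did not pass (limma adjusted p = 0.238). Fut2, the fucosyltransferase of intestinal mucus, read 287 and 331 in SeW against 151 and 185 in TW, a change of 0.88 short of the threshold (limma adjusted p = 0.0648). The fucose genes of the list did not all lie higher in SeW than in TW. Fut4 lay higher by 0.81 (limma adjusted p = 0.0799). Fut1 and Gfus lay lower, with changes of -0.65 and -0.61 (limma adjusted p = 0.133 and 0.149). The list's median for SeW against TW was 0.25, beside -0.04 for all genes.

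The transcription factors of the goblet and secretory lineage gave 12 tested genes with 0 past the test. Elf3, an epithelial factor needed for goblet cell maturation in mice, had the smallest p of these, with 355 and 284 in SeW against 522 and 703 in TW (log2 change of -0.93, limma adjusted p = 0.0535). Both SeW arrays were the lowest of all 8 for Elf3. Klf4, which goblet cells of the mouse colon need, read 1500 and 978 in WR, 1109 and 1391 in DSW1200, 1375 and 1448 in SeW, and 1107 and 857 in TW, and its change for SeW against TW was 0.54 (limma adjusted p = 0.213). The mucin folding and granule secretion list gave 26 tested genes with 0 past the test, and medians of -0.10 in WR, -0.02 in DSW1200 and 0.11 in SeW against TW.

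Goblet cell transcripts were present on all 8 arrays, with Muc2, Tff3, Fcgbp and Zg16 far above the filter and with Clca1, a protein secreted with Muc2, at 962 and 809 in WR, 958 and 630 in DSW1200, 737 and 616 in SeW, and 975 and 524 in TW. Markers of other cell types are given here beside the Spink4 values. Of 11 Paneth cell genes on the array 5 were tested, and Defa24, a Paneth cell defensin whose probes may also read its near-identical relatives, passed the test for WR against TW (3.42, limma adjusted p = 0.00934) and for SeW against TW (2.13, limma adjusted p = 0.0166). Defa24 read 367 and 502 in WR, 134 and 96.0 in DSW1200, 225 and 137 in SeW, and 31.0 and 51.6 in TW. Like Spink4 it was lowest in TW, but its highest group was WR and not SeW. The first call was lost without either WR array (0.0663 and 0.320) and the second without either SeW array (0.107 and 0.0834). RatNP-3b, another defensin, had 39.6 and 56.2 in WR, 17.3 and 16.5 in DSW1200, 39.6 and 22.9 in SeW, and 5.05 and 11.7 in TW. Defa5 stayed below 1 on every array. The summed level of the 11 Paneth genes was 4235 to 4684 in WR, 1172 to 5931 in DSW1200, 3112 to 4587 in SeW and 1842 to 2827 in TW. Most of it was Reg3b and Reg3g, antimicrobial lectins, and the lysozyme Lyz2, which macrophages also make. Reg3b read 2605 and 2733 in WR, 3656 and 431 in DSW1200, 1819 and 2888 in SeW, and 1000.1 and 1877 in TW. Reg3g read 663 and 857 in WR, 1673 and 199 in DSW1200, 691 and 1253 in SeW, and 364 and 610.0 in TW. Both were highest on DSW1200 replicate 1 and lowest on DSW1200 replicate 2. Lyz2 averaged 528 in WR, 427 in DSW1200, 291 in SeW and 347 in TW, so its mean in SeW was below that in TW, unlike Defa24, with a change of -0.21 (limma adjusted p = 0.661). The part of Paneth cells in the Spink4 result was not tested.

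**Figure D4:**
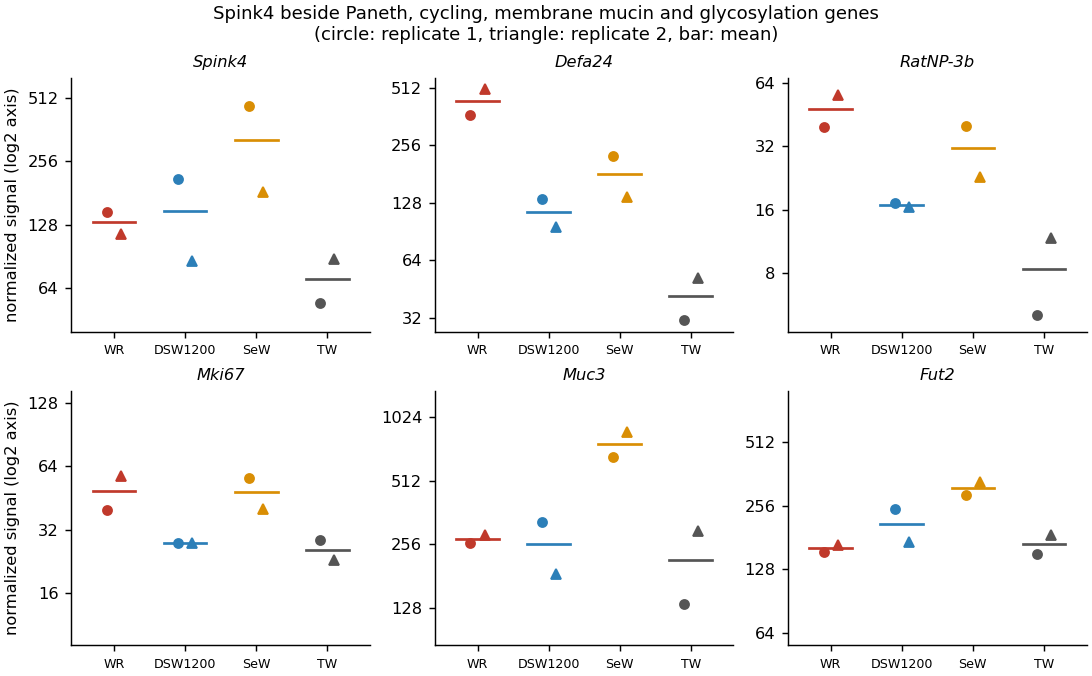
Quantile-normalized signal (log2 axis) on each array by group for Spink4, the Paneth cell defensins Defa24 and RatNP-3b, the proliferation gene Mki67, the membrane mucin Muc3 and the fucosyltransferase Fut2, with replicate 1 as circles, replicate 2 as triangles and the mean as a bar. Spink4, Defa24, RatNP-3b, Mki67 and Muc3 have their lowest group mean in TW, and Fut2 has it in WR. Muc3 is highest in SeW at 661 and 869.

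Of 10 tested markers of stem and cycling cells 0 passed limma's test in any comparison, with 3 to 5 at an unadjusted p under 0.05 in each comparison with TW. Against TW 9 of the 10 lay above in each of WR, DSW1200 and SeW, with medians of 0.86 in WR, 0.48 in DSW1200 and 0.96 in SeW. The gene below was Axin2 in WR (-0.73) and in SeW (-0.52), and Pcna in DSW1200 (-0.80, limma adjusted p = 0.617). Pcna had the smallest p of the list across the groups. It read 430 and 547 in WR, 263 and 242 in DSW1200, 546 and 427 in SeW, and 523 and 370 in TW. Mki67, a marker of dividing cells, read 39.6 and 57.6 in WR, 27.8 and 27.8 in DSW1200, 56.2 and 40.2 in SeW, and 28.5 and 23.0 in TW. The 13 genes of that list on the array summed to 612 to 810 in WR, 408 to 447 in DSW1200, 589 to 828 in SeW and 490 to 645 in TW. The sums of WR and SeW thus overlapped those of TW, while the sums of DSW1200 lay below them. Most of each sum was Pcna. Tff2, a trefoil peptide of gastric and Brunner gland cells, was high on the same 2 arrays of DSW1200 and SeW that led for Spink4, with 62.8 on DSW1200 replicate 1 and 50.7 on SeW replicate 1, against 15.98 and 4.34 on their second replicates. It read 17.0 and 8.94 in WR and 8.10 and 11.7 in TW. Tff1, the other tested gene of the gastric and Brunner gland list, was highest on TW replicate 2 and did not share this order. Its signal was 25.1 and 24.8 in WR, 39.4 and 24.45 in DSW1200, 20.55 and 25.8 in SeW, and 8.64 and 56.8 in TW. The gastric genes Gkn1 and Gkn2 were high on single arrays. Gkn1 read 0.40 and 1.46 in WR, 25.4 and 11.5 in DSW1200, 2.04 and 0.85 in SeW, and 4.95 and 59.0 in TW. Gkn2 read 0.25 and 1.73 in WR, 21.0 and 0.71 in DSW1200, 4.01 and 0.64 in SeW, and 0.58 and 38.6 in TW. Pgc, another gastric gene, was below 1.3 on every array, and the 9 gastric and Brunner gland genes summed to 58.7 to 70.4 in WR, 73.1 to 164 in DSW1200, 59.3 to 107 in SeW and 51.4 to 185 in TW. Lymphocyte markers were lowest in SeW, with sums over 17 genes of 616 to 639 in WR, 561 to 658 in DSW1200, 349 to 369 in SeW and 399 to 527 in TW. Enterocyte markers summed to 34997 to 36776 in WR, 37936 to 38889 in DSW1200, 42731 to 44346 in SeW and 39176 to 40424 in TW, so SeW had the highest level of the absorptive cell genes. Besides Defa24, 6 of these markers passed limma's test in the comparisons run. Apoa4, an enterocyte apolipoprotein, rose by 0.89 on the log2 scale for SeW against WR (adjusted p = 0.0494). The granzyme genes Gzma and Gzmb of cytotoxic lymphocytes fell by 1.10 and 1.65 for SeW against WR and by 1.28 and 1.18 for SeW against DSW1200. The complement genes C1qa and C1qc, expressed by macrophages, fell by 1.24 and 1.23 for SeW against WR, and Cpe, a prohormone-processing enzyme of enteroendocrine cells, fell by 1.05 for SeW against DSW1200. Of 8 tested tuft cell, 6 pancreatic acinar and 13 fibroblast and muscle genes, 0 passed limma's test in any comparison. At an unadjusted p under 0.05 each of these lists had between 0 and 3 genes in a comparison. Over all 9258 tested genes the count at that cut ran between 541 (DSW1200 against WR) and 1848 (SeW against DSW1200). All 6 tested acinar genes lay below for SeW against WR, with a median of -1.75, and the 14 acinar genes on the array summed to 129 to 686 in WR, 108 to 210 in DSW1200, 85.5 to 90.7 in SeW and 76.3 to 227 in TW. Amy2a3, a pancreatic amylase that was not tested, read 8.20 and 190 in WR, 0.40 and 9.0 in DSW1200, 0.10 and 0.24 in SeW, and 12.8 and 0.19 in TW, and so stood out on WR replicate 2. The part of these cells in the changes of the mucus genes was not tested.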

How the data were processed

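Per the labels, the authors made the deposited intensities with MAS5, as 1 linear signal per probe set and array. Its version is not given in the sources used here. The study's methods state quantile normalization, but the deposited intensities have a different median on each of the 8 arrays. They were therefore quantile normalized over all probe sets, raised to a floor of 1 and turned into log2 values. By the platform annotation 20826 probe sets had 1 gene symbol, 436 had several and 9837 had none, and only those with 1 were used under a gene's name. Where several read 1 gene, the brightest by mean log2 stood for it. Genes with a mean log2 signal under the median over probe sets, which corresponds to a signal of 6.69, were not tested. The test was limma 3.58.1 in R 4.3.3, a linear model of all 8 arrays on group, leaving 4 residual degrees of freedom, with empirical Bayes moderation along an intensity trend and Benjamini-Hochberg adjustment. It was tested on simulated data. Alternatives were no scaling of the deposited values, median centring, dropping the filter, raising it to 19.3 (6968 genes), adding 32 before log2, averaging or testing all probe sets, no trend, fitting only the 4 arrays at hand, a replicate block, the actin ratio as a model term, leaving out each array, and the 2-fold criterion. The number of arrays limits the precision of all values. Same-numbered arrays did not deviate together (correlations between -0.06 and 0.04), so the numbers do not pair them.

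The 7 members, the gene lists and the tests were chosen with earlier results of these data known. The genes named were the members, list genes past the test, up to 4 a list by smallest moderated F p, markers near background, and the 5 genes most like and the 5 most opposite to the members' mean. Clca1, Muc13, Axin2, Gfus, Slc9a3 and Slc26a3 were named after their values were seen. Promoters are RefSeq sequences of build GRCr8, and none was used for Zg16.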

Additional observations from a re-analysis of the deposited data

How the results depend on the processing

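Of 114 limma alternatives of the member counts (19 for each of 6 comparisons), 108 gave 0 members past the test. For SeW against TW the count was 2 on the deposited values (Muc2 and Spink4), 1 after median centring and 1 by the 2-fold criterion with or without the rule on overlap (Spink4 each time), and 0 to 1 with 1 array left out. For SeW against DSW1200 it was 3 on the deposited values (Muc2, Spink4 and Spdef) and 1 by the 2-fold criterion. For SeW against WR it was 1 on the deposited values and 1 by the 2-fold criterion with or without overlap. The count of members changed 2-fold without overlap became 1 on the deposited values for WR against TW and for DSW1200 against TW, and for SeW against DSW1200 it became 2 on the deposited values and 1 after median centring. With 1 array left out it was 0 to 1 for WR against TW, DSW1200 against TW, SeW against DSW1200 and SeW against WR. The counts above 0 are given here without the share of all tested genes under the same setting. They are therefore not read as a result about the members. The deposited values carry the brightness of each array, and the median gene was 0.92 higher in SeW than in TW on them, so each change on that scale is best set against this shift. The other causes were not tested.

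Of 798 member changes under limma alternatives, 735 kept their direction, 63 turned and 9 passed the threshold. On the deposited values the turned changes against TW were 0.20 for Agr2, 0.0022 for Muc2 and 0.081 for Tff3 in WR, 0.040 for Agr2 in DSW1200, and 0.76 for Agr2, 0.42 for Fcgbp, 0.71 for Spdef, 0.36 for Tff3 and 0.21 for Zg16 in SeW, and Zg16 was at 0.056 for SeW against WR. Median centring turned Zg16 in WR (-0.35) and Muc2 in SeW (-0.15), and the beta-actin covariate turned Agr2 in SeW (0.14). With 1 array left out, changes against TW ran between -0.42 and 0.22 for Agr2, -0.46 and 0.12 for Muc2, -0.25 and 0.13 for Tff3 and -0.15 and 0.15 for Zg16 in WR, between -0.37 and 0.26 for Agr2 and -0.27 and 0.087 for Fcgbp in DSW1200, and between -0.48 and 0.16 for Agr2 and -0.23 and 0.43 for Muc2 in SeW. Where an arm was left with 1 array, it was assumed to vary like the other groups. With the replicate block the arrays share only a number, and Spink4 for SeW against TW stayed at 2.08 with a limma adjusted p of 0.0601, with 0 members past the test in every comparison, while Galnt10 for SeW against TW went to 0.0545, Gmds for SeW against WR to 0.0647 and Muc3 for SeW against DSW1200 to 0.0653. Precision is limited by 2 arrays a group: the standard error of a log2 change had a median of 0.26 over all tested genes.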

Other observations

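Mucus unfolds in a fluid rich in chloride and bicarbonate. Of 16 genes listed for chloride and bicarbonate transport at the mucus layer, 15 were tested. By limma 0 of them passed the test in any comparison. Not all of the listed genes act in secretion. Mep1a and Mep1b are proteases, and Slc9a3 and Slc26a3 are transporters of ion absorption. The median of the 15 against TW was 0.09 in WR, -0.02 in DSW1200 and 0.34 in SeW. By their means 12 of 15 lay higher in SeW than in TW. That median and count therefore do not describe secretion alone. For SeW against TW the log2 change was -0.52 for Slc9a3 and 0.89 for Slc26a3. In this list Mep1b and Best2 were also among the other genes listed for goblet cells and their mucus. Slc12a2, the sodium-potassium-chloride cotransporter of secreting cells, read 142 and 225 in WR, 101 and 68.5 in DSW1200, 152 and 81.8 in SeW, and 67.2 and 48.8 in TW. All 6 arrays of the treated groups were above both TW arrays for Slc12a2, and its change was 1.65 in WR and 0.96 in SeW (limma adjusted p = 0.334 and 0.170). Car2, a carbonic anhydrase, read 2777 and 2109 in WR, 2293 and 2406 in DSW1200, 2308 and 2198 in SeW, and 1646 and 1413 in TW, and it too was lowest on the TW arrays (0.67 in WR and 0.56 in SeW, limma adjusted p = 0.373 and 0.0947). Gucy2c, the receptor of guanylin that drives fluid secretion, read 1053 and 1110 in SeW, above all other arrays, against 858 and 856 in TW (0.34, limma adjusted p = 0.207).

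Of 12 tested enteroendocrine markers, the other secretory cells of this epithelium, Cpe, a carboxypeptidase that matures peptide hormones, passed the test for SeW against DSW1200. It read 82.0 and 85.2 in SeW against 160 and 189 in DSW1200 (log2 change of -1.05, limma adjusted p = 0.0232), and the list's median for SeW against TW was -0.34.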
